A study of Saccharomyces cerevisiae with 6 samples.

Results

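The first 1132 nucleotides of the 25S ribosomal RNA gene of budding yeast, Saccharomyces cerevisiae, made up 1132 of the 6858 positions in the deposited tables and of the 3396 in 25S. Its members were the rows annotated as 25S from position 3252 to position 4383 of the transcribed rDNA, chosen by location and not by signal. They are nucleotides 1 to 1132 of 25S and lie on the minus strand of chromosome XII, chrXII:463187-464318 in build R64, within RDN25-2, one of the 25S genes inside the 35S precursor gene RDN37-2. The stretch holds 29.1% G, 17.7% C, 27.7% A and 25.6% U. All 1132 positions passed the filter on low values and were tested in each comparison. Yeast carries many near-identical rDNA repeats, so a position stands for all of them and its coordinate is that of one copy.

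RNA polymerase I (Pol I) transcribes the rDNA into one long precursor, from which 18S, 5.8S and 25S rRNA are released. 25S is the large rRNA of the 60S subunit, and its 5' end pairs with 5.8S. CDC73 and PAF1 encode subunits of the Paf1 complex, which travels with elongating RNA polymerases and is known in yeast to promote elongation by Pol I. Native elongating transcript sequencing (NET-seq) maps the 3' ends of RNA that stays bound to immunoprecipitated polymerase, so a position of high signal is one where Pol I dwells or where RNA 3' ends otherwise collect. Nothing in the tables parts nascent from mature rRNA, so signal within 25S need not all come from elongating Pol I.

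Pol I NET-seq was run on 3 genotypes with 2 libraries each: WT cells, cells lacking PAF1 (paf1 deletion) and cells lacking CDC73 (cdc73 deletion). The labels name the genotype alone for each library, with no batch, and do not say whether the libraries of a genotype came from separate cultures, so p-values measure only the spread between these libraries. The tables hold rDNA positions alone, so loss of PAF1 or CDC73 transcripts was not analysed here. Signal was given in units scaled to a sum of 1000000 per library, so every value is relative to the other positions of its library and total Pol I occupancy was not measured.

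Over this 5' stretch of 25S the WT libraries held 81888 and 39457 reads, with a median of 48 and 23 reads per position. The cdc73 deletion libraries held 3257265 and 2698514 reads there. For the paf1 deletion the smallest value gave 5403575 and 2637233.5 reads if it stands for 1 read. Only WT replicate 2 had positions with no read, 4 of them. Every comparison with WT thus sets shallow against deep libraries, and depth cannot be told apart from genotype there. Counts after thinning to one depth are given with each comparison. Across the 1132 positions the Spearman rho was 0.949 between the WT libraries, 0.960 between those of the paf1 deletion and 0.984 between those of the cdc73 deletion. Between genotypes it was lower, at 0.614 to 0.687 for WT with the paf1 deletion, 0.526 to 0.600 for WT with the cdc73 deletion and 0.787 to 0.831 for the deletions. These values describe positions that share libraries and are not independent.

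The sequences below surround sites described in the comparisons that follow. They are read from the base column of the deposited tables as RNA, 5' to 3', from 15 nt before to 5 nt after the position named, which stands in capitals. The first set shows sites with more signal in WT than in both deletions.
Position 3311: aucaauaagcggaggAaaaga
Position 3507: gcgguucuuuguaaaGugccu
Position 3858: acugcgacguaagucAaggau
Position 3866: guaagucaaggaugcUggcau
Position 3884: cauaaugguuauaugCcgccc
Position 3950: ggguguaaaacccauAcgcgu
Position 3991: ggggccucgcaagagGugcac
Position 4151: ucgaucgucgaauuuGgguau
The second set shows sites with more signal in both deletions than in WT.
Position 3439: gccguuccuugucuaUguucc
Position 3442: guuccuugucuauguUccuug
Position 3498: gcgaggagugcgguuCuuugu
Position 3713: uuugugcccucugcuCcuugu
Position 3770: aguuuugguggcaggAuaaau
Position 3938: augcgaguguuugggUguaaa
Position 4273: uuagagguuccggggUcgaaa
The last set shows sites that differed between the deletions.
Position 3271: gaccucaaaucagguAggagu
Position 3387: aaaucugguaccuucGgugcc
Position 3452: uauguuccuuggaacAggacg
Position 3862: cgacguaagucaaggAugcug

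The highest positions of the stretch were different ones in WT and in the deletions. In WT the top 5 were positions 3866, 3311, 3950, 4151 and 3820, with mean signals of 1746 ± 134, 1500.2 ± 363, 1175 ± 128, 1059 ± 1.56 and 1021 ± 1.38 (SD, n = 2). In the paf1 deletion they were positions 3770, 4273, 3771, 3498 and 3938, with 1502 ± 93.6, 1318 ± 58.1, 1179 ± 111, 1164 ± 55.0 and 1160 ± 98.95. In the cdc73 deletion they were 4273, 3498, 3938, 3771 and 3772, with 2489.9 ± 350, 2465 ± 397, 1611 ± 170, 1464 ± 24.7 and 1321 ± 8.19. The deletions had 4 of these 5 sites in common, and neither shared one with WT. By base, the WT sites were A at 3 positions, U at 1 and G at 1, while the 6 sites of the deletions were U at 3 positions, A at 2 and C at 1.

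**Figure D1:**
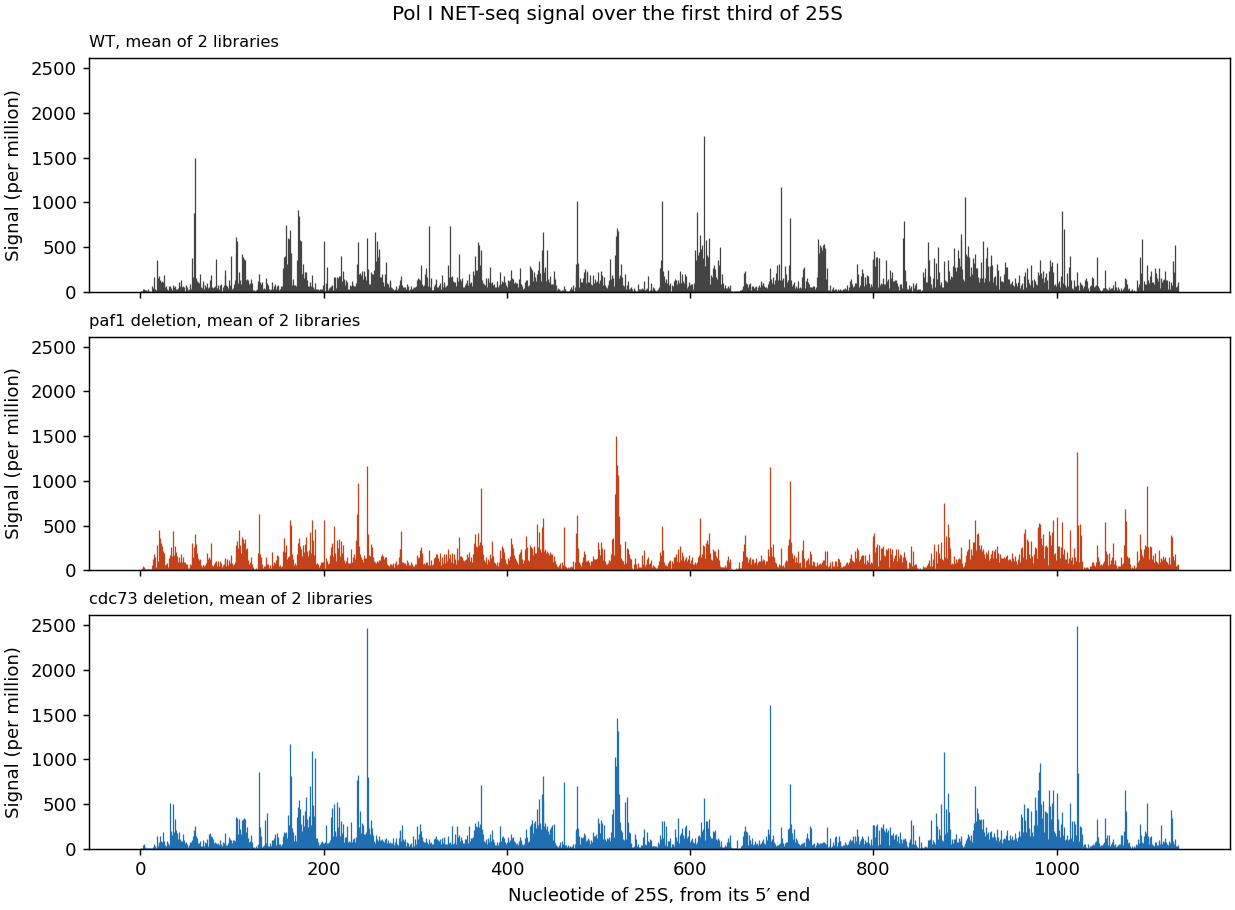
Mean scaled signal of 2 libraries (y axis) at each of the 1132 first nucleotides of 25S (x axis, counted from the 5' end of 25S), with 1 panel for each genotype on a common scale. The tallest spike is at nucleotide 615 in the WT panel, with a mean of 1746, at nucleotide 519 in the paf1 deletion panel, with 1502, and at nucleotide 1022 in the cdc73 deletion panel, with 2489.9.

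The summed signal of the stretch was 17.0% and 17.4% of all rDNA signal in the WT libraries, 18.2% and 18.6% with PAF1 deleted and 17.7% and 18.03% with CDC73 deleted. These values did not overlap between genotypes and differed by 1.15 percentage points at most between genotype means. Taken as a share of 25S alone, the stretch held 30.5% and 30.7% in WT cells, 31.0% and 31.3% in the paf1 deletion and 28.2% and 28.3% in the cdc73 deletion. The order of WT and the cdc73 deletion thus turned with the denominator: the middle 1132 positions of 25S held 23.7% ± 0.619 of all signal in the cdc73 deletion against 20.4% ± 0.138 in WT. The last 1132 positions held 21.6% ± 0.268 in the cdc73 deletion against 18.6% ± 0.269 in WT. No p is given for these sums, and with 2 libraries against 2 an exact two-sided permutation test cannot go below 0.333.

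Within the stretch, signal was spread most evenly in the paf1 deletion. The Gini coefficient, which is 0 for equal signal at all positions, was 0.413 and 0.418 there, 0.502 and 0.497 in WT and 0.476 and 0.505 in the cdc73 deletion. The paf1 deletion lay below the others, and WT and the cdc73 deletion overlapped. The highest 11 positions held 6.37% and 6.79% of the signal of the stretch in the paf1 deletion, 6.77% and 7.23% in WT and 8.34% and 9.26% in the cdc73 deletion, so here the cdc73 deletion lay apart. The lowest signal of any position was 8.09 and 6.69 with PAF1 deleted, 1.79 and 1.80 with CDC73 deleted and 2.08 and 0 in WT. The WT values stand for 1 read and no read, the floor of these shallow libraries. Neither the Gini coefficient nor the lowest signal was compared at one depth.

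Between the paf1 deletion and WT, more positions of the stretch were called higher than lower in the deletion. By limma with Benjamini-Hochberg adjustment over all 6839 rDNA positions tested, 418 of the 1132 positions were called higher in the paf1 deletion, beside 29.6% of all positions, and 171 were called lower, beside 19.6%. Those counts are 36.9% and 15.1% of the stretch, and together 589 positions, or 52.0%, beside 49.2%. Changes of at least 2-fold numbered 107 higher and 81 lower, beside 7.33% and 7.59% of all positions. The median log2 fold change was 0.23 in the stretch and 0.09 over all positions, where a pseudocount added before taking log2 makes the change of low positions look smaller. At 903 positions the libraries of the 2 genotypes did not overlap, beside 75.9% of all positions. The paf1 deletion was the higher one at 620, beside 45.5%, and the lower one at 283, beside 30.4%. Scaling the libraries to equal medians gave 315 higher and 231 lower, 27.8% and 20.4% of the stretch, beside 21.9% and 24.2% of all positions. Thinning every library to 226202 reads gave 215 higher and 120 lower, which are 18.99% and 10.6%, beside 15.9% and 12.4%.

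The deepest fall lay at position 4151 (nucleotide 900 of 25S, chromosome XII 463419), a G. Its signal was 1060.0 and 1058 in the WT libraries, 70.3 and 106 in the paf1 deletion libraries and 73.7 and 54.2 in the libraries lacking CDC73, a paf1 deletion minus WT log2 difference of -3.03 (SE 0.16, adjusted p = 4.62e-05). The WT values rest on 509 and 239 reads, and they lie far above all 4 deletion libraries, which overlap each other. Around it, the 19 neighbouring positions from 4136 to 4154 were each called lower in the paf1 deletion, with log2 fold changes from -3.03 to -0.65. Their mean signal was 378 in both WT libraries and 105 and 146 in the paf1 deletion libraries. It was the longest unbroken run of lower calls in that comparison, singled out after its values were seen.

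A second block of falls lay upstream, from position 3852 to 3901. Position 3866, a U and the highest site of WT, had signals of 1651 and 1841 in the WT libraries, 203 and 338 in the paf1 deletion libraries and 608 and 534 in the libraries lacking CDC73. The log2 difference to WT was -2.53 (SE 0.23, adjusted p = 1.61e-04) in the paf1 deletion and -1.54 (SE 0.14, adjusted p = 4.65e-04) in the cdc73 deletion, and the direct difference between the deletions was -0.99 (SE 0.19, adjusted p = 0.00299). Position 3858, an A, read 873 and 921 in the WT libraries, 71.2 and 112 in the paf1 deletion libraries and 84.3 and 69.2 in the libraries lacking CDC73, and changed by -2.77 (SE 0.17, adjusted p = 5.78e-05) in the paf1 deletion. The C at position 3884 changed by -2.45 (SE 0.15, adjusted p = 5.78e-05).

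The window from 3852 to 3901 as a whole held 1.31% ± 0.0144 of all rDNA signal in WT and 0.704% ± 0.0971 in the paf1 deletion (mean and SD of 2 libraries). Its RNA sequence is given below, with capitals at the 11 positions called at least 2-fold lower in the paf1 deletion. Most lie in the first 15 nt of the window, up to position 3866, and the other 3 lie at position 3884 or within 2 nt of it.
Window 3852 to 3901: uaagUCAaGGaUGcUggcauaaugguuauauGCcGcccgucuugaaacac
Here 18 of the 50 positions were called lower and 9 higher.

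Another block ran from position 3989 to 3999, where 11 neighbouring positions were called lower, with log2 fold changes from -2.91 to -0.59. The mean signal over the block was 389 and 445 in WT against 81.4 and 102 in the paf1 deletion and 65.7 and 60.9 in the cdc73 deletion. Position 3991, a G, read 566 and 615 in the WT libraries, 29.8 and 45.1 in the paf1 deletion libraries and 70.5 and 62.6 in the libraries lacking CDC73, a log2 difference of -2.91 (SE 0.15, adjusted p = 4.28e-05) in the paf1 deletion. Positions 3992, 3993 and 3994 followed at -2.08, -2.15 and -2.29. The remaining falls among the 10 largest were G at 3507 (-2.32) and G at 4111 (-2.19), and in all 5 of the 10 were G. Among all calls, 48 of the 329 G positions were lower, 14.6%, beside 15.1% of the stretch and 17.7% of all G positions of the rDNA.

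The largest rise in the paf1 deletion was at position 4273 (nucleotide 1022, chromosome XII 463297), a U that follows a run of 4 G. It had 187 and 266 in the WT libraries, 1359 and 1277 in the paf1 deletion libraries and 2242 and 2737 in the libraries lacking CDC73, a log2 difference of 2.33 (SE 0.18, adjusted p = 1.04e-04). The neighbours 4274 (C) and 4276 (A) rose by 2.12 and 1.82. At 4273 the WT libraries are the lowest, the cdc73 deletion libraries the highest, and no genotypes overlap.

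Other rises were at 3713 (C, log2 2.29), 3439 (U, 2.18), 3287 (C, 2.02), 3938 (U, 1.94), 4325 (U, 1.86), 3442 (U, 1.77) and 3285 (A, 1.74), with adjusted p from 9.45e-05 to 2.18e-04 by limma. Position 3439 had only 19 and 7 reads in the WT libraries and 3713 only 19 and 19. At 3285 the WT signal was only 47.9 and 39.8, so the WT levels of these sites are coarse. By base the 10 rises were U at 5 positions, C at 3 and A at 2, with no G. Over all calls, 119 of the 329 G positions were called higher, 36.2%, beside 36.9% of the stretch and 29.1% of all G positions of the rDNA. The sites 3439 and 3442 sit in a run of 14 positions, 3432 to 3445, all called higher, where mean signal was 79.0 and 89.8 in WT and 263 and 229.96 in the paf1 deletion.

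In 22 windows of 50 nt laid from the first nucleotide of 25S, 10 were called higher and 6 lower in the paf1 deletion, beside 43.1% and 36.5% of the 137 windows of the rDNA. The fit gave all windows 1 common spread, so each SE was 0.11. Its p-values rest on that pooled spread and not on the libraries at each window. Their size therefore cannot be set against that of the other window fits. The largest rise was in the window from 4302 to 4351, from 0.412% ± 0.0166 to 0.886% ± 0.0682 of all signal, log2 1.10 (SE 0.11, adjusted p = 2.05e-19). Without WT replicate 1 the number of windows called was 10, against 16, while the share of all windows called went from 79.6% to 51.8%.

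The window 4302 to 4351 had 37 of its 50 positions called higher and 1 lower. The capitals in its RNA sequence mark the 17 positions called at least 2-fold higher in the paf1 deletion.
Window 4302 to 4351: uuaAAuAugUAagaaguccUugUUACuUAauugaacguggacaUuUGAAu
The first 50 nt of 25S, from 3252 to 3301, rose too, from 0.320% ± 0.0254 to 0.640% ± 0.00725, log2 1.00 (SE 0.11, adjusted p = 1.34e-16), with 26 positions called higher and 1 lower.
Window 3252 to 3301: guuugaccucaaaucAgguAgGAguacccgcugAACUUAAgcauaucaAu
In that sequence the 12 capitals lie downstream of the first 15 nt. The first 10 nt had a mean signal of 0.109 to 0.129 times that of the stretch in WT and the paf1 deletion and 0.0823 and 0.0934 in the cdc73 deletion, and the very start of 25S was low in all libraries. Next among window rises was 4202 to 4251 (log2 0.79), and the largest window falls were 3852 to 3901 (-0.91), 4102 to 4151 (-0.71) and 3952 to 4001 (-0.44).

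**Figure D2:**
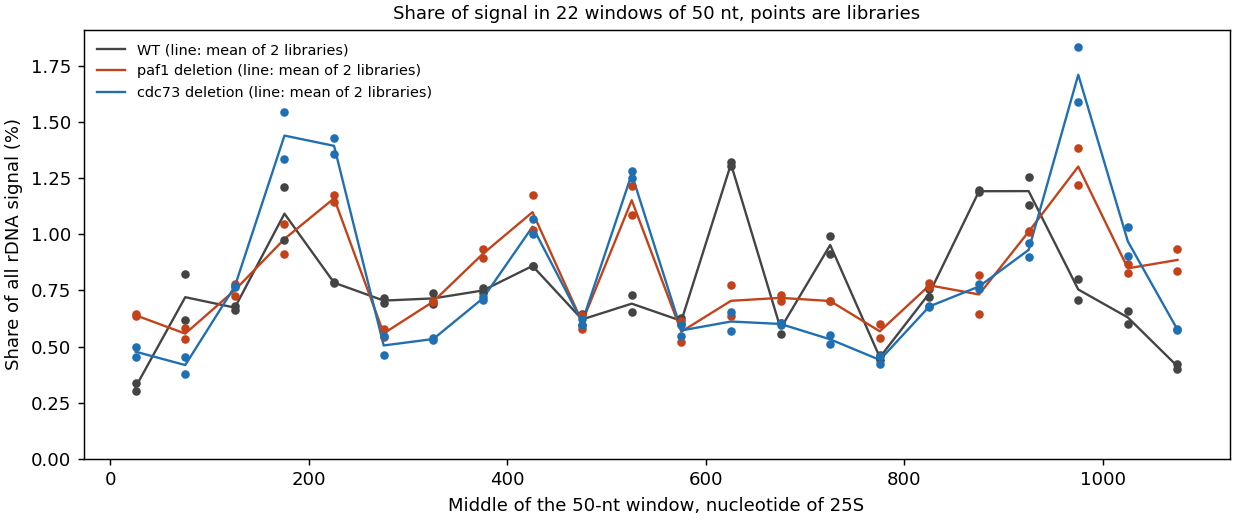
Share of all rDNA signal in percent (y axis) in 22 windows of 50 nt along the 5' stretch of 25S (x axis, window middle in nucleotides of 25S). Points are single libraries and lines the means of 2 libraries per genotype; WT stands above the deletions in the windows from nucleotide 601 and 851, and below them in the windows from nucleotide 501 and 951.

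Between the cdc73 deletion and WT, positions of the stretch were called in both directions. Against WT, 380 of 1132 positions were called higher in the cdc73 deletion, beside 30.0% of all positions, and 295 lower, beside 29.4%. Together they made 675 positions, or 59.6%, beside 59.4%. At 132 and 122 of them signal changed at least 2-fold, beside 10.6% and 11.3%. The median log2 fold change was 0.06, against -0.00 over all positions. At 921 positions the libraries did not overlap, beside 81.2% of all positions, with the cdc73 deletion higher at 507, beside 40.8%, and lower at 414, beside 40.4%. After thinning, 238 of the 1131 tested were called higher and 199 lower, 21.04% and 17.6%, beside 19.8% and 20.2% of all positions. On the reads recovered from these 4 libraries, edgeR's quasi-likelihood test called 429 higher and 298 lower, beside 33.2% and 29.98% of all positions. DESeq2 on the same reads called 357 and 292, beside 28.2% and 29.7%. The comparisons of both deletions use the same WT libraries, so their values are set side by side here and their likeness is not used as a result.

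Position 4273 was again the largest rise, at log2 3.23 (SE 0.19, adjusted p = 1.63e-04), and in the direct comparison of the deletions the log2 difference, paf1 minus cdc73 deletion, was -0.89 (SE 0.17, adjusted p = 0.00252). Positions 3713 and 4274 rose by 2.92 and 2.86, 3442 by 2.85 and 3439 by 2.73. Position 3938, a U at nucleotide 687, had 256 and 274 in the WT libraries, 1229.9 and 1089.9 in the paf1 deletion libraries and 1491 and 1732 in the libraries lacking CDC73, and rose by 2.42 (SE 0.13, adjusted p = 1.43e-04). The rises at 3283, 3441, 3782 and 3387 ranged up to 2.36 on the log2 scale. WT signal was only 22.9 and 48.7 at 3441 and 45.8 and 17.7 at 3387, so those WT levels are coarse. In this list 6 of the 10 were U, 2 C, 2 G and none A.

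Position 4151 was also the deepest fall in the cdc73 deletion, at log2 -3.36 (SE 0.13, adjusted p = 1.03e-04). Positions 3858, 3884, 3507 and 3589 followed with log2 differences of -2.96, -2.90, -2.78 and -2.66. Of the 10 falls, 5 were G, 4 A and 1 C. Among all calls, 92 of 329 G and 90 of 313 A positions were lower, 28.0% and 28.8%, beside 26.1% of the stretch. Over the whole rDNA 29.3% of G and 36.1% of A positions were called lower. Position 3950, an A and another of the top sites of WT, read 1085 and 1266 in the WT libraries, 280.3 and 227 in the paf1 deletion libraries and 221 and 254 in the libraries lacking CDC73, with differences to WT of -2.02 (SE 0.17, adjusted p = 1.25e-04) in the paf1 deletion and -2.11 (SE 0.13, adjusted p = 1.90e-04) in the cdc73 deletion. Between the deletions this site had a log2 difference of 0.08 (SE 0.13, adjusted p = 0.634). Position 3311, the second highest of WT, read 1243 and 1757 in the WT libraries, 331 and 469.6 in the paf1 deletion libraries and 311 and 199.8 in the libraries lacking CDC73; it is the first A of a run of 4. Its WT libraries differed more from each other than at the other top sites, and both lay above every deletion library.

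By window, 8 of 22 were called higher and 7 lower in the cdc73 deletion, beside 32.8% and 40.9% of the 137 windows. The window from 4202 to 4251 rose from 0.754% ± 0.0655 to 1.71% ± 0.172 of all signal, log2 1.18 (SE 0.10, adjusted p = 6.84e-05). No position of it was called lower and 38 were called higher, of which the 23 in capitals changed at least 2-fold.
Window 4202 to 4251: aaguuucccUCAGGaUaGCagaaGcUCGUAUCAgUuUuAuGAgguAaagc
Within it, the 19 positions from 4225 to 4243 formed the longest run of higher calls, with a mean signal of 157 and 167 in WT and 419 and 503 in the cdc73 deletion. The windows 3752 to 3801 (log2 0.88) and 3452 to 3501 (0.83) followed, and the largest falls were in 3852 to 3901 (-1.11), 3952 to 4001 (-0.84) and 3302 to 3351 (-0.78).

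The windows 3752 to 3801 and 3452 to 3501 each hold sites that ranked among the highest of the deletions. Positions 3770, 3771 and 3772 (A, U and A) are neighbours. Position 3770 had 616 and 633 in the WT libraries, 1436 and 1568 in the paf1 deletion libraries and 927 and 930.4 in the libraries lacking CDC73, and its difference to WT was 1.20 (SE 0.19, adjusted p = 0.00158) in the paf1 deletion and 0.54 (SE 0.12, adjusted p = 0.00935) in the cdc73 deletion. It was the one of the 3 that stood higher in the paf1 than in the cdc73 deletion, by 0.67 (SE 0.14, adjusted p = 0.00411). Positions 3771 and 3772 differed between the deletions by -0.30 (SE 0.15, adjusted p = 0.109) and -0.31 (SE 0.17, adjusted p = 0.16) and were not called. Position 3498, a C, had 575 and 628 in the WT libraries, 1203 and 1125 in the paf1 deletion libraries and 2185 and 2746 in the libraries lacking CDC73, and the cdc73 deletion exceeded the paf1 deletion there by more than the spread between libraries (log2 -1.04, SE 0.17, adjusted p = 0.00118, paf1 minus cdc73 deletion).

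**Figure D3:**
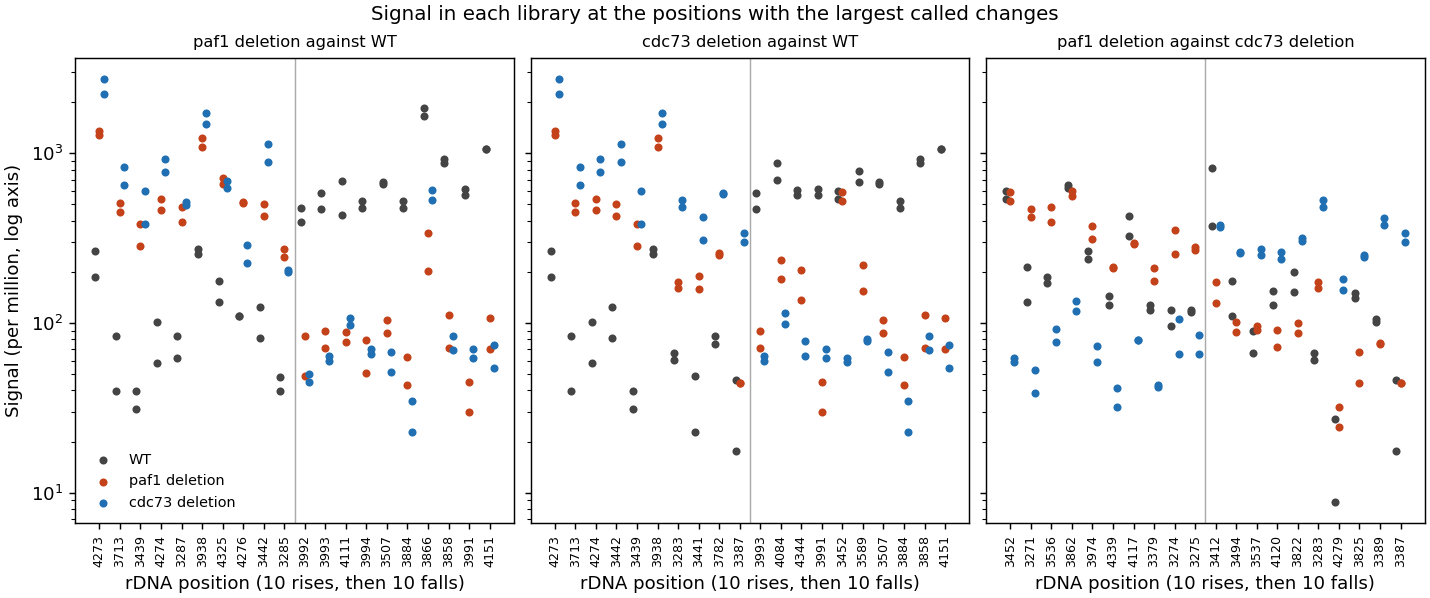
Scaled signal on a log axis (y axis) in each of the 6 libraries, shown as points, at the 10 positions with the largest called rise and the 10 with the largest called fall of each comparison (x axis, rDNA positions). The points of the 2 genotypes compared are apart at every position, as the naming rule requires, and in the right panel the WT points at positions 3452 and 3862 lie beside those of the paf1 deletion.

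The deletions also differed from each other. Against the cdc73 deletion, 400 of 1132 positions were called higher in the paf1 deletion, beside 34.4% of all positions, and 171 lower, beside 20.6%. Only 40 and 20 changed at least 2-fold, beside 4.28% and 2.53%. The median log2 difference was 0.13, against 0.07 over all positions, and at 884 positions the libraries did not overlap, beside 79.8%, with the paf1 deletion higher at 577, beside 48.5%, and lower at 307, beside 31.3%. In either direction 571 were called, 50.4%, beside 55.0%. Under equal medians 282 were higher and 281 lower, without the excess of higher calls, beside 25.504% and 28.9% of all positions. After thinning to one depth 62 of 1131 were called higher and 33 lower, beside 7.31% and 5.36%. Leaving out cdc73 deletion replicate 2 gave 95 lower, beside 14.8%.

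Position 3452, an A at nucleotide 201, showed the largest excess in the paf1 deletion. It had 537 and 602 in the WT libraries, 596 and 525 in the paf1 deletion libraries and 58.8 and 62.6 in the libraries lacking CDC73, a log2 difference of 2.49 (SE 0.11, adjusted p = 3.11e-06) between the deletions. The paf1 deletion and WT libraries overlapped there (log2 -0.02, SE 0.16, adjusted p = 0.918), while the log2 difference of the cdc73 deletion to WT was -2.55 (SE 0.11, adjusted p = 1.11e-04). The A at position 3862 had the same order, with 627 and 655 in the WT libraries, 599.5 and 563 in the paf1 deletion libraries and 134 and 118 in the libraries lacking CDC73. Its differences were 1.86 (SE 0.11, adjusted p = 6.77e-06) between the deletions, -0.13 (SE 0.16, adjusted p = 0.515) for the paf1 deletion against WT and -2.01 (SE 0.11, adjusted p = 1.45e-04) for the cdc73 deletion against WT. These are sites where WT signal was lower without CDC73, and where no difference from WT was called without PAF1.

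Position 3271 had another order, with WT between the deletions. Its signals were 133 and 212 in the WT libraries, 473 and 423 in the paf1 deletion libraries and 53.2 and 38.7 in the libraries lacking CDC73, with a difference to WT of 1.19 (SE 0.19, adjusted p = 0.00174) in the paf1 deletion and -1.25 (SE 0.21, adjusted p = 0.00355) in the cdc73 deletion. The other rises in the paf1 over the cdc73 deletion were at 3536, 3974, 4339, 4117, 3379, 3274 and 3275, by log2 1.40 to 1.88. Of the 10, 6 were A, 2 G and 2 U.

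In the opposite direction, position 3387, a G at nucleotide 136, was the site most in favour of the cdc73 deletion. It read 45.8 and 17.7 in the WT libraries, 44.3 and 44.1 in the paf1 deletion libraries and 299 and 337 in the libraries lacking CDC73, a paf1 minus cdc73 deletion difference of -2.00 (SE 0.11, adjusted p = 4.29e-06). The WT values there rest on 22 and 4 reads and spanned those of the paf1 deletion (log2 0.23, SE 0.17, adjusted p = 0.295). Position 3389, a U, differed by -1.85 (SE 0.11, adjusted p = 5.37e-06), and its difference from WT was -0.30 (SE 0.14, adjusted p = 0.117) in the paf1 deletion and 1.57 (SE 0.11, adjusted p = 2.09e-04) in the cdc73 deletion. At 3283, a U, the values were 60.4 and 66.4 in the WT libraries, 174 and 162 in the paf1 deletion libraries and 486 and 528 in the libraries lacking CDC73, a difference of -1.37 (SE 0.11, adjusted p = 2.78e-05). The other 7 lay at 3825, 4279, 3822, 4120, 3537, 3494 and 3412, at log2 -1.53 to -1.07. This list held 6 U and 4 G, with no A.

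Among windows, the paf1 deletion stood higher in 8 and lower in 3, beside 32.8% and 16.8% of all windows. The largest differences were in 4302 to 4351 (log2 0.62, SE 0.09, adjusted p = 0.00243), 3252 to 3301 (0.42) and 3302 to 3351 (0.42), and with the opposite sign in 3402 to 3451 (log2 -0.56, SE 0.11, adjusted p = 0.00582), 4202 to 4251 (-0.39) and 3452 to 3501 (-0.26). Few of these 11 windows were called by limma once any library was left out. The number fell to 5 and 2 on leaving out the first or the second cdc73 deletion library, beside 26.3% and 16.1% of all windows, and to 1 and 0 on leaving out the first or the second paf1 deletion library, beside 7.30% and 2.92%. In that last fit 10 windows had an unadjusted p under 0.05.

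Occupancy by base separated all 3 genotypes. Relative occupancy is the mean signal of positions with a base divided by the mean over the 1132 positions. For the 313 positions with A it was 1.16 and 1.20 in WT cells, 1.32 and 1.32 in the paf1 deletion and 1.08 and 1.06 in the cdc73 deletion. For the 290 with U it was 0.865 and 0.881 in WT cells, 0.918 and 0.906 in the paf1 deletion and 1.09 and 1.13 in the cdc73 deletion. A was thus most occupied in the paf1 deletion, and U in the cdc73 deletion was the one case in which U exceeded the mean. For the 329 positions with G it was 0.952 and 0.928 in WT cells, 0.811 and 0.831 in the paf1 deletion and 0.789 and 0.765 in the cdc73 deletion, and for the 200 with C 1.03 and 0.981, 0.933 and 0.909, and 1.09 and 1.11. With medians in place of means, the order of WT and the paf1 deletion for G and U, and of WT and the cdc73 deletion for C, turned.

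**Figure D4:**
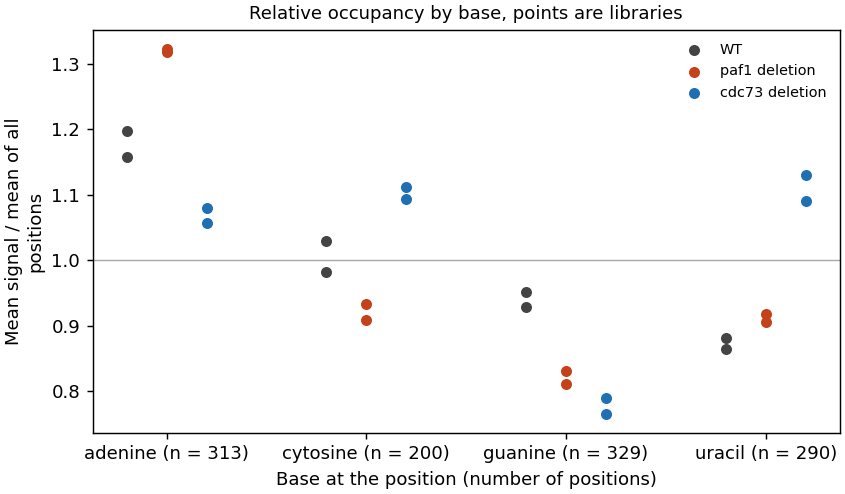
Relative occupancy (y axis, mean signal at positions with a base divided by the mean over all positions of the stretch) for each base (x axis) in each of the 6 libraries, shown as points in the order WT, paf1 deletion and cdc73 deletion. Points for adenine lie highest in the paf1 deletion, at 1.32, and those for uracil highest in the cdc73 deletion, at 1.09 and 1.13.

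Calls were also counted by base. Between the deletions, 174 of 313 A positions were called higher in the paf1 deletion and 13 lower, 55.6% and 4.15%, beside 52.4% and 7.74% of all A positions of the rDNA. Of 290 U positions 57 were higher and 75 lower, 19.7% and 25.9%, beside 22.7% and 30.4% of all U positions. For G the counts were 114 and 41 of 329, beside 33.4% and 19.4% of all G, and for C 55 and 42 of 200, beside 27.5% and 25.9% of all C. Against WT, 142 A positions were higher and 33 lower in the paf1 deletion, 45.4% and 10.5%, beside 37.2% and 18.004% of all A. In the cdc73 deletion 124 U positions were higher than in WT and 57 lower, 42.8% and 19.7%, beside 35.3% and 22.4% of all U. At all other rDNA positions, A stood at 1.14 and 1.14 in WT cells, 1.20 and 1.20 in the paf1 deletion and 0.976 and 0.973 in the cdc73 deletion, with the genotypes in the same order.

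The base on either side was also related to signal, given here as a description. Positions that follow a G had a relative occupancy of 1.43 and 1.41 in WT cells, 1.31 and 1.36 in the paf1 deletion and 1.28 and 1.24 in the cdc73 deletion, and those that follow an A 0.658 and 0.651, 0.807 and 0.793, and 0.746 and 0.764. Where the next base was C, the values were 0.997 and 0.970 in WT against 0.766 and 0.763 in the paf1 deletion and 0.847 and 0.868 in the cdc73 deletion. The dinucleotide GC, at 57 positions, read 1.13 and 1.04 in WT and 0.645 to 0.681 in all 4 deletion libraries. CC, at 48 positions, read 0.973 and 0.906 in WT and 0.616 to 0.657 in the deletions. UC, at 53 positions, went the other way, most in the cdc73 deletion, at 1.23 and 1.35 against 0.845 and 0.868 in WT. In the paf1 deletion it read 0.936 and 0.889, also above both WT libraries.

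The elemental pause consensus known from bacterial RNA polymerase, with C or U at the RNA end (the position itself), G as the next base and G 9 bases before the position, was found at 44 positions of the stretch, 3.89% of it, and at 3.41% of all rDNA positions, on the transcribed sense strand only. The read end counted is not stated, so taking the position as the RNA end is an assumption here. Relative occupancy there was 0.939 and 0.912 in WT cells, 1.21 and 1.21 in the paf1 deletion and 1.57 and 1.65 in the cdc73 deletion, with no overlap between genotypes. The 124 positions with at least 7 G or C in the last 10 nt had 1.17 and 1.06 in WT cells, 1.31 and 1.27 in the paf1 deletion and 1.43 and 1.46 in the cdc73 deletion. Those with at most 3, numbering 236, had 0.795 and 0.811, 0.880 and 0.806, and 0.764 and 0.764. Positions in the 16 runs of 4 or more of one base stood at 1.12 to 1.24 in all libraries.

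Pause sites, taken as positions above the mean + 3 SD of the 50 nt on each side in both libraries of a genotype, numbered 25 for WT, 17 with PAF1 deleted and 25 with CDC73 deleted. These are 2.21%, 1.502% and 2.21% of the stretch, beside 1.90%, 1.66% and 1.97% of all positions. They held 12.4%, 8.41% and 13.6% of the signal of the stretch. Of the WT sites 12 were A, 7 G, 4 U and 2 C, and of the cdc73 deletion sites 10 were A, 8 U, 6 C and 1 G. The paf1 deletion had 10 A, 4 U, 3 C and no G, and in these genotypes 11, 11 and 10 sites, in the order WT, cdc73 deletion and paf1 deletion, followed a G. The deletions had 14 sites in common, 82.4% of those of the paf1 deletion and 56.0% of those of the cdc73 deletion. WT shared 5 of its 25 sites with the paf1 deletion, which are 29.4% of the latter's 17, and 6 with the cdc73 deletion, 24.0% of either list. The 5 sites found in all 3 genotypes were 3498, 3691, 3771, 3772 and 3960. At mean + 4 SD the counts were 11, 10 and 14.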

How the data were processed

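Pol I NET-seq was measured in 6 libraries. Per the labels' protocols, a DNA linker that carries a UMI was joined to the RNA 3' ends. The submitters' processing notes list build R64 and, in no stated role, STAR 2.7.1a and bedtools 2.28.0, with cutadapt 3.4, SAMtools 1.6, FastQC 0.11.7, R 4.3.2 and bcl2fastq 2.20.00. No source used here gives the use of UMIs, the read end counted or the placing of reads that match several repeats. The deposited signal holds reads per position scaled by the authors, and the values show that positions 1 to 6739 sum to 1000000 per library while the last 119 lie outside that sum. Dividing by the smallest value above 0 gave whole reads, within 0.1, for 100% of values in both WT libraries and 99.9% and 100.0% in the cdc73 deletion libraries. The same share was 99.9% and 100.0% in the paf1 deletion libraries, but their recovery did not pass a check of the values, so no count test used them.

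Computed here were fits with limma 3.58.1 (R 4.3.3) per pair of genotypes over the whole rDNA, using log2 of signal plus a pseudocount of 0.5 times the median value above 0 (48.1 in the fit of the paf1 deletion against WT, 44.3 in that of the cdc73 deletion, 47.4 between the deletions). A position needed signal in 2 or more of 4 libraries. The eBayes step used a trend, p-values were adjusted by Benjamini-Hochberg, and the threshold was 0.05. Every adjusted p in the report is from limma. Windows of 50 nt used log2 shares without trend, and the last 32 positions fill no whole window. Since the unit was a scaled signal, edgeR 4.0.16 and DESeq2 1.42.0 ran only as alternatives, on the recovered reads of the 4 WT and cdc73 deletion libraries. Thinning drew reads by each library's shares of signal, to the depth of WT replicate 2, and takes the paf1 deletion libraries to be deeper than that. Positions named are the 10 largest rises and falls per comparison among those that passed the threshold, did not overlap and had at least the median signal, the 5 highest per genotype, and the 3 windows that moved most each way; other sites were picked after their values were seen. Members and lists were chosen with earlier results of these data known. Python 3.11.15, numpy 2.4.6, pandas 2.3.3 and matplotlib 3.10.9 made the remaining values and plots.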

Additional observations from a re-analysis of the deposited data

How the results depend on the processing

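Thinning to one depth moved the number of positions called higher to 215 (paf1 deletion against WT), 238 (cdc73 deletion against WT) and 62 (paf1 against cdc73 deletion), and those lower in the last to 33. Equal medians moved the last to 281. Windows of 100 nt gave 7, 9 and 4 calls of 11 in the same order, beside 73.5%, 77.9% and 44.1% of all such windows. Leaving out 1 library gave, for higher positions, 285 to 489, 281 to 465 and 272 to 432, and for lower positions 139 to 207, 209 to 378 and 95 to 178. Windows called then numbered 10 to 14, 12 to 15 and 0 to 5. The share of all rDNA positions called moved too when a library was left out. A fit that leaves 1 library in a genotype holds no measure of that genotype's spread. Whether those ranges are particular to the stretch was therefore not tested. With the replicate number as a block, higher calls were 436, 397 and 390, beside 30.6%, 31.3% and 33.2% of all positions. Lower calls were then 180 and 319 against WT, beside 20.3% and 31.2%, and fewer than in the main fit between the deletions. Same-numbered libraries' deviations from their genotype mean correlated at 0.11, 0.03 and -0.23 across all rDNA positions, and at -0.34 across the stretch between the deletions. With 2 libraries per genotype these deviations mirror each other, so the second pair adds nothing to the first. Nothing in the labels ties libraries of one number. The crossed block, chosen after seeing the data, gave more calls each way between the deletions than the main fit. Pause sites above mean + 4 SD numbered 11 (WT), 10 (paf1 deletion) and 14 (cdc73 deletion) in the stretch, and were not counted over all positions. As a share of 25S, the stretch differed by 0.556 (paf1 deletion minus WT), -2.38 (cdc73 deletion minus WT, reversed from 0.614) and 2.94 percentage points (paf1 minus cdc73 deletion). With medians, differences in relative occupancy became, for paf1 deletion minus WT, 0.230 for A, -0.153 for C, 0.0384 for G (reversed) and -0.00431 for U (reversed). For cdc73 deletion minus WT they became -0.0516 for C (reversed) and -0.00539 for G. For paf1 minus cdc73 deletion they became 0.325 for A, -0.101 for C and -0.236 for U. Capping at the 99th percentile gave 0.221 for A and -0.148 for C between the deletions, and 0.0590 for C in the cdc73 deletion minus WT. The cause of these moves was not tested. Of the 60 entries in the lists of largest rises and falls, 2 lost their call after thinning, 3274 and 3494 between the deletions. None of these entries reversed under any alternative run. They were picked for large changes without overlap, and the other sites named were not part of this count. WT depth, a median of 48 and 23 reads per position, limits what low positions can show.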
